A study of Mus musculus with 28 samples.

Results

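The mitotic cell cycle genes are 35 genes whose products build and control cell division. They were chosen by name among the 55341 gene names of the count matrices, and the rule used no measured value. Earlier results of these data were, however, known when the list was drawn up. All 35 were found in both matrices, and all 35 had enough counts to be tested in every comparison. The lowest count of any of them in any tumor was 175.

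RNA was sequenced from 28 whole tumors, each from a different female BALB/c.AusBP mouse of 8 to 10 weeks. The mice carried AB1-HA cells, an established mouse mesothelioma line, as a subcutaneous tumor on the flank. Control mice received PBS (4 tumors), and ICB, immune checkpoint blockade, was anti-CTLA-4 given 1 time with anti-PD-L1 given 3 times, each antibody at 100 µg a dose (5 tumors). 5-FU, a pyrimidine analog, was injected into the vein at 75 mg/kg (5 tumors), and cisplatin, a platinum drug that crosslinks DNA, was injected into the peritoneum at 6 mg/kg (4 tumors). The combinations, 5-FU+ICB and cisplatin+ICB, used the same doses (5 tumors each), and every tumor was taken 7 days after the start of treatment. A tumor was a mixture of line cells and host cells, so that fewer dividing cells and less RNA in each dividing cell cannot be told apart in these values. The comparisons below ask how each treatment, alone or combined, moved the mitotic genes.

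Most cells in a tissue rest, and the genes described here are silent or low in them. When a cell has copied its DNA, the transcription factors B-Myb and FOXM1 switch on a common set of genes whose products are needed for division. Cyclins A and B activate the kinase CDK1 and drive the cell into mitosis, Polo and Aurora kinases and kinesin motors build the spindle, and kinetochore proteins tie each chromosome to it. The anaphase-promoting complex, a ubiquitin ligase with CDC20 as its activator, then marks cyclin B for destruction, the chromosomes separate, and the cell is cleaved. In resting cells the DREAM complex represses many of these genes through a promoter motif named the cell cycle genes homology region, CHR, and the factor NF-Y binds CCAAT boxes next to it.

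The rule did not use the promoters, and many of the 35 shared these motifs. RefSeq promoters on GRCm38.p6, from 250 bases before to 50 bases after the annotated start, were at hand for 30 of the 35 genes, and those of Ccna2, Kif20a, Foxm1, Tpx2 and Aurkb were not looked at. The CHR letters TTTGAA or TTCGAA, read on both strands, lay within 50 bases of the start in 22 of the 30 promoters (73.3%), against 5.29% of the promoters of 27025 genes. CCAAT, on either strand, lay within 100 bases upstream of the start in 21 of 30 (70%), against 20% of all promoters. Both stood there in 19 of 30 (63.3%), against 1.12% of all. Promoters of Cdk1, Cdc20, Ube2c and Kif11 are shown because a CHR stands with at least 1 CCAAT in the last 100 bases before the start. The stretches are chr10:69352913-69353012 on the minus strand, chr4:118437344-118437443 on the minus strand, chr2:164769829-164769928 on the plus strand and chr19:37376282-37376381 on the plus strand. Capitals mark both motifs, where ATTGG and TTCAAA are CCAAT and TTTGAA read from the other strand.
Cdk1: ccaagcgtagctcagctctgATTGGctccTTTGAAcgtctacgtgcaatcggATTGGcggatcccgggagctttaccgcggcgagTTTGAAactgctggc
Cdc20: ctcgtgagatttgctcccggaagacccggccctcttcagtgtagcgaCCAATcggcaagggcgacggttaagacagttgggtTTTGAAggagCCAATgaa
Ube2c: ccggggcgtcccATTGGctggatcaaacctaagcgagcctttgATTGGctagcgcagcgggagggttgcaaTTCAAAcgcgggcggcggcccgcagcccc
Kif11: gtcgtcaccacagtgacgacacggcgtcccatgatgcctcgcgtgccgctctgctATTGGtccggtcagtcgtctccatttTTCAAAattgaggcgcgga

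In many other members the CHR lay just around or behind the start. The 30 bases around it are shown for Ccnb2, Plk1, Aurka, Cenpa, Kif4 and Hmmr, which represent several of the roles described below, with the CHR in capitals. Their positions are chr9:70421533-70421562 on the minus strand (Ccnb2), chr7:122159453-122159482 on the plus strand (Plk1), chr2:172370521-172370550 on the minus strand (Aurka), chr5:30666890-30666919 on the plus strand (Cenpa), chrX:100626072-100626101 on the plus strand (Kif4) and chr11:40733412-40733441 on the minus strand (Hmmr).
Ccnb2: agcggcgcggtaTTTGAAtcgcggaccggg
Plk1: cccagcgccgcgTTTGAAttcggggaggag
Aurka: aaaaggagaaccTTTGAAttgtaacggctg
Cenpa: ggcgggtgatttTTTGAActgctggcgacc
Kif4: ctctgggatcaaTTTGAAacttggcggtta
Hmmr: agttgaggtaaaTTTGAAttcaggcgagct

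Within 50 bases of the start, no CHR was matched in Mki67, Ccnb1, Kif2c, Cenpe, Nuf2, Birc5, Nusap1 and Mybl2, which says only that these letters were not in that window. Another 50 mitotic genes, of which 43 had a promoter entry, held the CHR there in 51.2%, and genes of DNA replication, with 16 entries, in 6.25%. With ICB the 22 members with the motif had a median log2 fold change of -1.09 against PBS and the 8 without it one of -0.88, a difference that was not tested.

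Levels are given as CPM, counts as a share of the library, scaled by library size and by TMM factors, which balance the composition of the libraries. They were compared between tumors and not between genes. Total counts per tumor ranged from 23541733 to 33950805, at which 3 counts, the floor, were at most 0.127 CPM. Some libraries stood apart over all genes. In cisplatin+ICB replicate 1, genes with short transcripts were high and genes with long transcripts were low. Relative to the mean of the PBS tumors, its median of the genes up to 2000 bases was 1.85 log2 units above that of the genes over 4000 bases. In the other 27 tumors this difference lay between -0.80 and 0.74, the highest being that of PBS replicate 2. It was negative in every ICB, 5-FU and 5-FU+ICB tumor. In 5-FU+ICB replicate 5, mitochondrial transcripts took 16.1% of the counts, against 1.03% to 6.80% in the other tumors. Of markers of mesothelial and mesothelioma cells, Msln, which encodes mesothelin, was at 311 ± 38.7 CPM in PBS (n = 4), and Upk3b was at or near 0. Msln was at 0.50 CPM in 5-FU+ICB replicate 5 and between 34.4 and 654 CPM in the other 27 tumors, while the keratin gene Krt19 was at 48.9 CPM there and at most 1.86 elsewhere, and the muscle actin gene Acta1 at 2204 CPM and at most 1258 elsewhere. Of the same marker list, Krt8 and Krt18 were at 33.4 and 27.2 CPM there and at most 9.33 and 1.52 elsewhere. Wt1, at 0.70 CPM, was within the range of the other tumors. This library thus held little Msln, while these keratin genes were higher in it than in any other tumor. What set it apart was not tested. The counts of called members that rest on either library are given below with and without it.

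Averaged over the 35 genes, the log2 CPM was 6.73 ± 0.14 in PBS tumors (SD, n = 4), 6.52 ± 0.17 with cisplatin (n = 4), 6.24 ± 0.41 with 5-FU (n = 5), 6.04 ± 0.19 with cisplatin+ICB (n = 5), 5.85 ± 0.64 with 5-FU+ICB (n = 5) and 5.71 ± 0.55 with ICB (n = 5). The means of the PBS tumors were 6.72, 6.54, 6.88 and 6.76, in the order of the replicate numbers, which is kept for all values below. ICB tumors had means of 5.99, 4.97, 5.39, 6.42 and 5.77, each below the lowest PBS tumor. With 5-FU they were 6.45, 6.68, 5.63, 6.42 and 6.01, and with 5-FU+ICB 5.65, 6.83, 5.97, 5.75 and 5.06. Replicate 2 of the 5-FU group and replicate 2 of the 5-FU+ICB group thus reached the range of the PBS tumors. With cisplatin the means were 6.33, 6.64, 6.69 and 6.41, and with cisplatin+ICB 6.12, 5.88, 6.34, 5.90 and 5.98. The cisplatin values ran into the PBS range from below and the cisplatin+ICB values all stayed under it. In the order of the group means each group overlapped the next, and the spread within ICB, 5-FU and 5-FU+ICB was several times that within PBS.

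**Figure D1:**
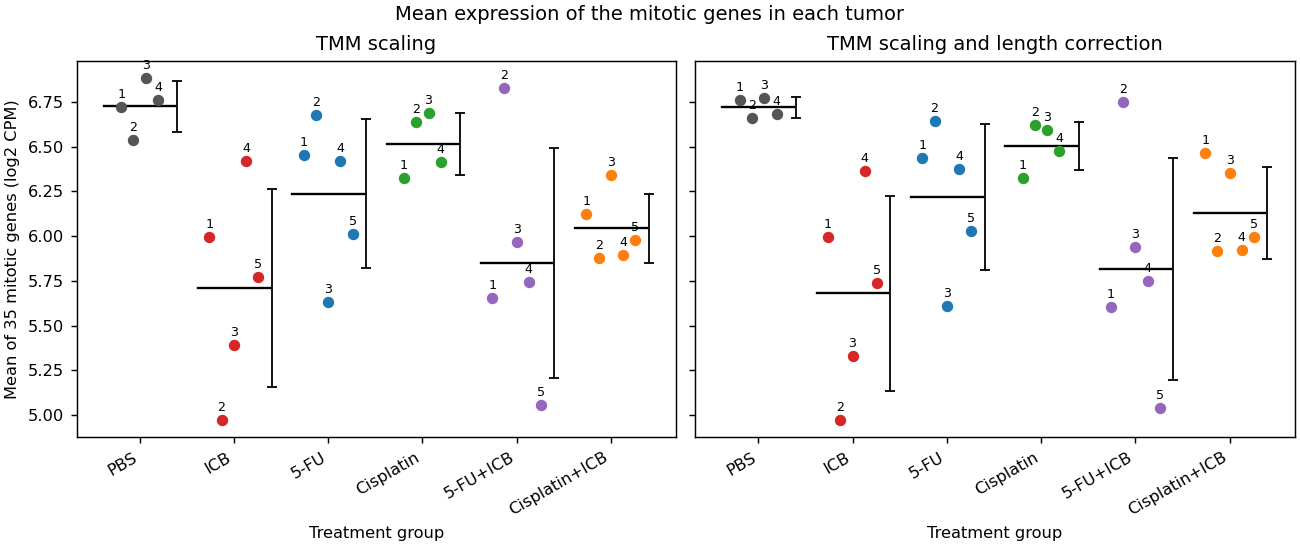
Mean log2 CPM of the 35 mitotic genes in each of the 28 tumors by treatment, with TMM scaling on the left and with a correction for transcript length added on the right; points are tumors and bars are the group mean ± SD. PBS tumors lie between 6.54 and 6.88 and all 5 ICB tumors between 4.97 and 6.42.

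In 3 of the 6 groups the same tumors were extreme for nearly all of the 35 genes. In the ICB group, replicate 2 had the lowest CPM and replicate 4 the highest for all 35 genes. With 5-FU, replicate 3 was lowest for all 35 and replicate 2 highest for 33, and with 5-FU+ICB replicate 2 was highest for all 35 and replicate 5 lowest for 30. In the other 3 groups no tumor was extreme in that way. PBS replicate 2 was lowest for 18 genes and highest for 9, and PBS replicate 3 highest for 16 and lowest for 8. With cisplatin, replicate 1 was lowest for 23 and highest for 2, replicate 4 lowest for 12 and highest for 8, and replicate 3 highest for 16 and lowest for 0. Cisplatin+ICB replicate 1 was highest for 19 and lowest for 12. The first principal component held 70.9% of the variance of the 35 genes over the 28 tumors, and 64.7% once group means were taken out, against 38.5% and 38.3% over all genes tested. Kif20a, a kinesin of the cleavage furrow, followed the mean of the other 34 closest (r = 0.99 over 28 tumors, group means removed), and Cenpa, the histone variant of centromeres, least (r = 0.31). These correlations describe the data, since the points share libraries and depth.

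**Figure D2:**
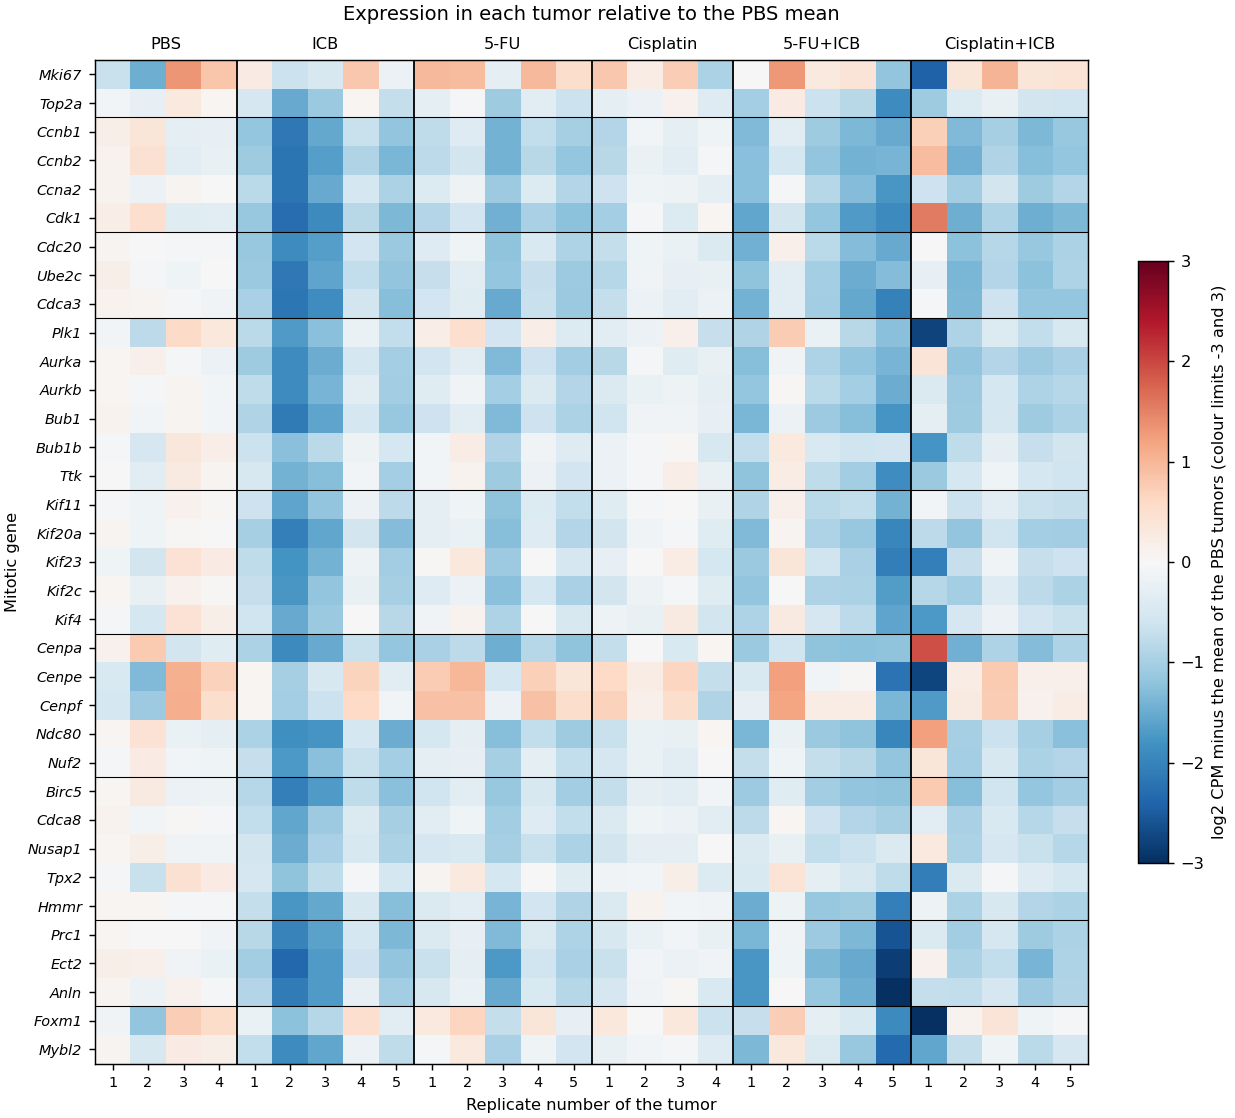
Log2 CPM of the 35 mitotic genes (rows, grouped by role) in the 28 tumors (columns, grouped by treatment), each gene relative to its mean in the PBS tumors and shown between -3 and 3. ICB and 5-FU+ICB columns are mostly below PBS, with 5-FU+ICB replicate 2 near PBS, and cisplatin+ICB replicate 1 shows members on both sides of it.

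With ICB alone, 23 of the 35 genes were lower than in PBS tumors and none was higher, where a call needed a Benjamini-Hochberg adjusted p under 0.05 in the quasi-likelihood test of edgeR, over all genes tested, and an absolute log2 fold change over 0.5. In the same comparison 18.8% of all tested genes were called lower. All 35 fold changes were negative, from -1.45 to -0.27, with a median of -1.02, while the median of all tested genes was -0.03. In 22 genes every ICB tumor lay below every PBS tumor, as in 21.6% of all genes. Called genes were found in 7 of the 9 role groups: 4 of 4 cyclins and their kinase, 3 of 3 genes of the anaphase-promoting complex and mitotic entry, 4 of 6 kinases, 3 of 5 kinesins, 3 of 5 kinetochore genes, 4 of 5 genes of the passenger complex and spindle assembly, and 2 of 3 cytokinesis genes. Neither proliferation marker (Mki67, Top2a) and neither transcription factor (Foxm1, Mybl2) passed the test.

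With 5-FU, 8 of the 35 were lower than in PBS, where 13% of all tested genes were, and the median change was -0.55. Every 5-FU tumor lay below every PBS tumor for 20 genes, as for 17.8% of all genes, and 14 had an unadjusted p under 0.05 (22.1% of all genes). With 5-FU+ICB, 21 were lower, where 18.7% of all genes were, with a median of -0.83, and for 11 genes the groups did not overlap, as for 14.7% of all. These comparisons and that of ICB share the same 4 PBS tumors. Cisplatin alone gave no call among the 35, nor among all 17819 genes tested (0%), and 0 members had an unadjusted p under 0.05 in edgeR (0.477% of all genes were lower at that p). The 35 changes were all below 0 and small, from -0.35 to -0.00 with a median of -0.25, and DESeq2 called 0 as well. For 5 genes, Cdc20, Cdca3, Aurkb, Bub1 and Cdca8, the cisplatin tumors lay below all PBS tumors (1.91% of all genes). With all 6 groups joined in one model 0 of the 8 calls with 5-FU was made (1.61% of all genes were called lower). With cisplatin+ICB, 1 gene, Kif20a, was lower, where 1.4% of all genes were, and DESeq2 called 7, where it called 0.853% of the 35419 genes with a count. Its median was -0.63, 19 genes had an unadjusted p under 0.05 (8.89% of all genes), and 10 did not overlap PBS (4.69% of all). Without cisplatin+ICB replicate 1 the count was 23, where 17.1% of all genes were called lower, and the median was -0.73.

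**Figure D3:**
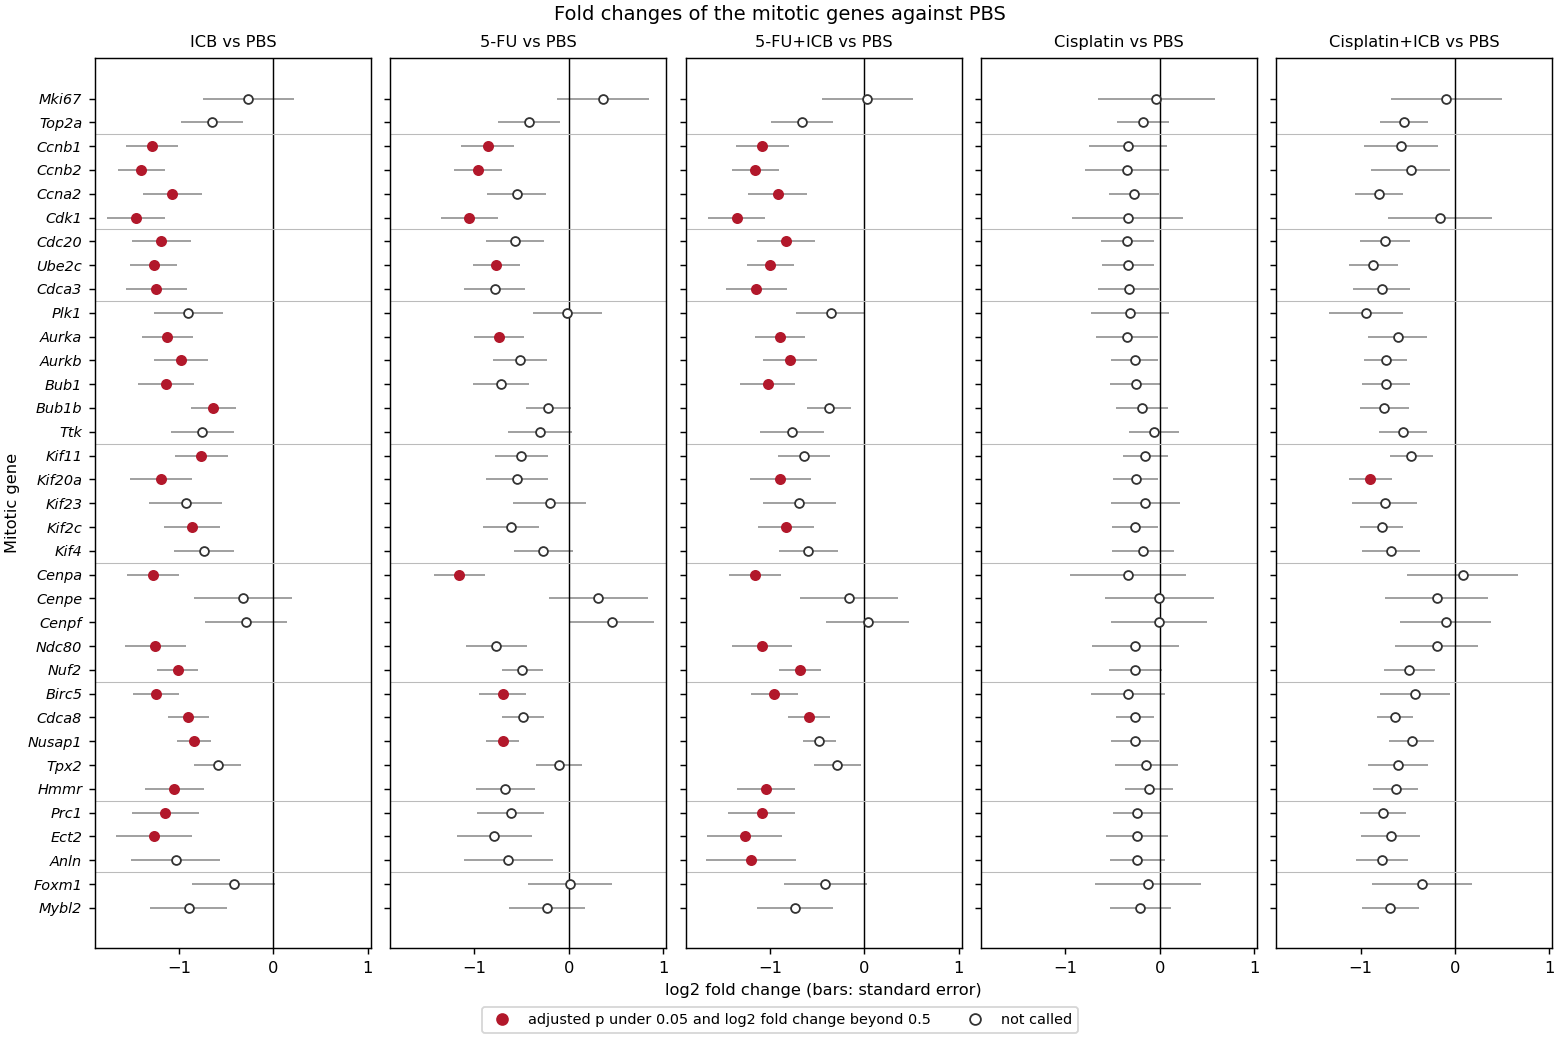
Log2 fold change of each of the 35 genes against PBS in the 5 treatment groups, ± standard error of the edgeR fit; filled points passed the test. Filled points number 23 for ICB, 8 for 5-FU, 21 for 5-FU+ICB, 0 for cisplatin and 1 for cisplatin+ICB.

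The cyclins and their kinase fell with ICB and with 5-FU+ICB as a whole group. Cdk1 (chr10:69335146-69352938, minus strand in GRCm38), the kinase that starts mitosis, was measured at 266, 332, 181 and 186 CPM in PBS tumors and at 107, 48.2, 62.4, 130.3 and 92 CPM with ICB. The 5-FU tumors had 127, 157, 85.5, 119 and 98.7 CPM and the 5-FU+ICB tumors 79.7, 158, 104, 71.7 and 62.1 CPM. In all 3 of these groups the highest value was below the lowest PBS value. With cisplatin Cdk1 was at 115, 229, 175 and 242 CPM, which overlapped PBS, and with cisplatin+ICB at 691, 84.1, 122, 84 and 91.9 CPM, where replicate 1 exceeded every other tumor and the other 4 lay below every PBS tumor. Cdk1 fell by 1.45 on the log2 scale (SE 0.30, adjusted p = 0.00175) with ICB, by 1.05 on the log2 scale (SE 0.30, adjusted p = 0.0195) with 5-FU and by 1.35 on the log2 scale (SE 0.30, adjusted p = 0.00271) with 5-FU+ICB in the edgeR quasi-likelihood test. Its change with cisplatin+ICB was -0.16 (SE 0.55, adjusted p = 0.926), and without replicate 1 it was -1.29 (SE 0.31, adjusted p = 0.00605).

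Ccnb1 (chr13:100778650-100786570, minus strand) encodes cyclin B1, the partner that activates CDK1. It was at 150.0, 172, 108 and 111 CPM in PBS, 59.3, 29.8, 45.8, 83 and 58.8 CPM with ICB and 77.8, 102, 49.5, 79.4 and 66.2 CPM with 5-FU. In 5-FU+ICB tumors it was at 53.2, 105, 63.8, 52.1 and 46.9 CPM. Each of these treated tumors was under the lowest PBS tumor. Cisplatin left values of 72.1, 125, 110.1 and 121 CPM and cisplatin+ICB values of 218, 53.1, 66.4, 52.4 and 60.3 CPM, the first of them above all PBS tumors. Ccnb1 fell by 1.29 on the log2 scale (SE 0.28, adjusted p = 0.00207) with ICB, by 0.86 on the log2 scale (SE 0.28, adjusted p = 0.0312) with 5-FU and by 1.08 on the log2 scale (SE 0.28, adjusted p = 0.00565) with 5-FU+ICB (edgeR).

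Ccnb2, which encodes cyclin B2, had the smallest p-value of the 35 genes. Its values were 119.6, 154, 89.6 and 95.8 CPM in PBS, 53.2, 24.4, 35.6, 60.1 and 43.5 CPM with ICB and 65.5, 76.2, 42.2, 62.7 and 50.2 CPM with 5-FU. They were 47.2, 77.4, 49.6, 41.8 and 42.3 CPM with 5-FU+ICB. Here too the 3 treated groups were wholly below PBS. The cisplatin tumors had 62.9, 97.5, 88.6 and 110.0 CPM and the cisplatin+ICB tumors 214, 41.5, 59.5, 46.2 and 49.9 CPM, again with 1 high tumor. By the edgeR test Ccnb2 fell by 1.40 on the log2 scale (SE 0.25, adjusted p = 0.00078) with ICB, by 0.96 on the log2 scale (SE 0.25, adjusted p = 0.0136) with 5-FU and by 1.15 on the log2 scale (SE 0.25, adjusted p = 0.0024) with 5-FU+ICB. Ccna2, whose product cyclin A2 acts in DNA replication and early mitosis, went from 352 ± 29.2 CPM in PBS (n = 4) to 165 ± 65.7 with ICB and 185 ± 92.1 with 5-FU+ICB (n = 5 each). It fell by 1.07 (SE 0.31, adjusted p = 0.0113) and by 0.92 (SE 0.31, adjusted p = 0.0235) on the log2 scale, and its change with 5-FU was -0.55 (SE 0.31, adjusted p = 0.186) in the same edgeR fit.

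Genes of the anaphase-promoting complex and of mitotic entry also fell together with ICB and with 5-FU+ICB. Cdc20, the activator of the complex at the end of metaphase, was tightly grouped in PBS tumors, at 131, 122, 119.8 and 121 CPM, and stood at 56.2, 33.3, 39, 82.2 and 56.7 CPM with ICB. With 5-FU it was at 93.9, 113, 53.7, 90.5 and 64.7 CPM and with 5-FU+ICB at 45.1, 137, 70.4, 49.97 and 42.9 CPM. Only 1 treated tumor of these 15, 5-FU+ICB replicate 2, was above the lowest PBS tumor. It had 75.4, 113, 108 and 91.4 CPM with cisplatin, all below PBS, and 125, 52.9, 68.5, 55.9 and 63.5 CPM with cisplatin+ICB, where 4 of 5 were below PBS. Cdc20 fell by 1.19 on the log2 scale (SE 0.31, adjusted p = 0.00628) with ICB and by 0.83 on the log2 scale (SE 0.31, adjusted p = 0.0366) with 5-FU+ICB, and its change with 5-FU was -0.57 (SE 0.31, adjusted p = 0.174) and with cisplatin -0.34 (SE 0.28), neither past the edgeR threshold.

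Ube2c (chr2:164769898-164778822, plus strand) encodes the ubiquitin-conjugating enzyme that works with that complex. It was at 154, 134, 125 and 135 CPM in PBS, 63.5, 30.7, 45.3, 81.6 and 60.5 CPM with ICB and 84.5, 108, 60.9, 84.7 and 64.1 CPM with 5-FU. The combination 5-FU+ICB gave 59.1, 110.3, 67.9, 49 and 55.6 CPM. All 15 of these treated tumors lay below PBS. With cisplatin Ube2c was at 75.3, 128, 115 and 116 CPM and with cisplatin+ICB at 116, 52.6, 74.2, 58.4 and 72.2 CPM, the latter also below PBS in all 5 tumors. The edgeR fit gave falls of 1.27 on the log2 scale (SE 0.25, adjusted p = 0.00121) with ICB, 0.77 on the log2 scale (SE 0.25, adjusted p = 0.0314) with 5-FU and 1.00 on the log2 scale (SE 0.25, adjusted p = 0.00467) with 5-FU+ICB, and a change of -0.86 (SE 0.26, adjusted p = 0.0572) with cisplatin+ICB. Cdca3, a factor that helps to trigger mitotic entry, fell by 1.24 (SE 0.32, adjusted p = 0.00617) with ICB and by 1.14 (SE 0.32, adjusted p = 0.00941) with 5-FU+ICB on the log2 scale.

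Among the kinases, Aurora kinases and Bub1 fell, and Plk1 did not pass the test. Plk1, the Polo kinase of centrosomes and kinetochores, was at 91.1, 56, 144 and 121 CPM in PBS and 55.5, 29.7, 40.9, 83.9 and 57.8 CPM with ICB. It was at 112, 137, 65.2, 112 and 73.6 CPM with 5-FU and 51.9, 163, 84.4, 54.5 and 40.4 CPM with 5-FU+ICB. The PBS tumors were spread widely for this gene, with replicate 2 lowest, and every group overlapped them. Values were 76.7, 86.6, 108 and 60.3 CPM with cisplatin and 14, 51.5, 73.4, 58 and 69 CPM with cisplatin+ICB, where replicate 1 was the lowest of all 28 tumors. The changes of Plk1 were -0.90 (SE 0.36, adjusted p = 0.0547) with ICB, -0.02 (SE 0.37, adjusted p = 0.977) with 5-FU and -0.36 (SE 0.36, adjusted p = 0.435) with 5-FU+ICB (edgeR).

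Aurka, the Aurora kinase of spindle poles, had 61.5, 66.3, 58.4 and 52.7 CPM in PBS and 28.2, 15.9, 21.4, 41 and 29.2 CPM with ICB. With 5-FU it had 40.1, 47.6, 23.6, 38.9 and 28.8 CPM, with 5-FU+ICB 24.7, 55.4, 31.2, 26.3 and 22.7 CPM. ICB and 5-FU tumors were all below PBS, and 5-FU+ICB replicate 2 entered the PBS range. Cisplatin tumors had 33.3, 56.9, 46.2 and 51.1 CPM and cisplatin+ICB tumors 78, 26, 32.3, 27.9 and 30.2 CPM, with replicate 1 above all PBS tumors. In edgeR it fell by 1.12 on the log2 scale (SE 0.27, adjusted p = 0.00371) with ICB, by 0.74 on the log2 scale (SE 0.27, adjusted p = 0.0497) with 5-FU and by 0.89 on the log2 scale (SE 0.27, adjusted p = 0.013) with 5-FU+ICB. The call with 5-FU was kept in 1 of 9 fits with 1 tumor left out.

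Aurkb encodes the Aurora kinase of the chromosomal passenger complex, which corrects faulty attachments to the spindle. Its CPM were 107, 98, 109 and 96.2 in PBS, 60.4, 27.6, 38.9, 80.3 and 49.3 with ICB and 79.8, 95.8, 50.5, 76.4 and 55.5 with 5-FU. With 5-FU+ICB they were 45.9, 104, 58.3, 50.2 and 36.3. Again 5-FU+ICB replicate 2 was the single tumor of these groups within the PBS range. With cisplatin Aurkb was at 76.1, 89.2, 92 and 83 CPM and with cisplatin+ICB at 76.1, 47.8, 71.2, 53.8 and 56.3 CPM, both groups wholly below PBS. Aurkb fell by 0.98 on the log2 scale (SE 0.29, adjusted p = 0.0119) with ICB and by 0.79 on the log2 scale (SE 0.29, adjusted p = 0.0331) with 5-FU+ICB in edgeR, and changed by -0.51 (SE 0.29, adjusted p = 0.184) with 5-FU, by -0.26 (SE 0.25) with cisplatin and by -0.74 (SE 0.23, adjusted p = 0.0657) with cisplatin+ICB, short of the threshold in each. The checkpoint kinase gene Bub1 had 74.1 ± 5.26 CPM in PBS (n = 4) and 33.2 ± 13.4 CPM with ICB (n = 5), a fall of 1.14 on the log2 scale (SE 0.29, adjusted p = 0.00602). Its relative Bub1b, part of the complex that holds back CDC20, fell by 0.64 on the log2 scale (SE 0.24, adjusted p = 0.0377), and Ttk, the kinase that starts the checkpoint, changed by -0.75 (SE 0.34, adjusted p = 0.0816).

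Of the 5 kinesins, Kif11, Kif20a and Kif2c fell with ICB, and Kif20a was the only one of the 35 genes past the threshold with cisplatin+ICB. Kif20a, a motor needed to complete cytokinesis, was at 139.7, 121, 136 and 132 CPM in PBS and 66.1, 31.7, 44.8, 90.01 and 53.5 CPM with ICB. It was at 107, 116, 54.8, 101 and 72 CPM with 5-FU and 52.6, 139.6, 69.4, 59.6 and 34 CPM with 5-FU+ICB. The ICB and 5-FU tumors were all below PBS. With cisplatin it was at 89.8, 122, 128 and 102 CPM, which overlapped PBS, and with cisplatin+ICB at 76.5, 58.5, 86.7, 65.5 and 64.5 CPM, which did not. Kif20a fell by 1.19 on the log2 scale (SE 0.33, adjusted p = 0.00842) with ICB, by 0.89 on the log2 scale (SE 0.33, adjusted p = 0.0345) with 5-FU+ICB and by 0.90 on the log2 scale (SE 0.23, adjusted p = 0.0313) with cisplatin+ICB (edgeR), and its change with 5-FU was -0.55 (SE 0.33, adjusted p = 0.212). Leaving out cisplatin+ICB replicate 1 gave -0.87 (SE 0.22, adjusted p = 0.00802) for that group. The call with cisplatin+ICB was kept in 3 of 9 fits with 1 tumor left out, those without cisplatin+ICB replicate 1, cisplatin+ICB replicate 3 or PBS replicate 2, and it was lost with the replicate block, with no filter, with all 6 groups joined and with the compared groups alone. With ICB, Kif11, the motor that pushes spindle poles apart, fell by 0.76 on the log2 scale (SE 0.28, adjusted p = 0.0357), and Kif2c, which takes microtubules apart at centromeres, by 0.86 on the log2 scale (SE 0.30, adjusted p = 0.0279). Kif23, the motor of the central spindle, changed by -0.93 (SE 0.39, adjusted p = 0.0607) and Kif4, which organises mitotic chromosomes, by -0.73 (SE 0.32, adjusted p = 0.0697).

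The kinetochore genes split. Cenpa, the histone variant that marks centromeres, was at 122, 192, 76.2 and 86.5 CPM in PBS and 57.7, 29.4, 39.3, 70.4 and 50.2 CPM with ICB. It was at 56.4, 64.1, 40.3, 61.9 and 48 CPM with 5-FU and 51.5, 73.5, 48.5, 47.3 and 48.5 CPM with 5-FU+ICB. Every tumor of these 3 groups was below the lowest PBS tumor. Cisplatin tumors had 67.6, 113, 81.3 and 116 CPM and cisplatin+ICB tumors 423, 41.2, 58.3, 44.9 and 58.4 CPM, the first of them above every other tumor of the 28. Cenpa fell by 1.28 on the log2 scale (SE 0.27, adjusted p = 0.00197) with ICB, by 1.16 on the log2 scale (SE 0.27, adjusted p = 0.00881) with 5-FU and by 1.16 on the log2 scale (SE 0.27, adjusted p = 0.00349) with 5-FU+ICB in edgeR. With cisplatin+ICB its change was 0.08 (SE 0.59, adjusted p = 0.966), and -1.19 (SE 0.31, adjusted p = 0.00884) without replicate 1. Ndc80 and Nuf2, partners in the complex that grips microtubules, fell with ICB by 1.25 on the log2 scale (SE 0.32, adjusted p = 0.00576) and by 1.02 on the log2 scale (SE 0.22, adjusted p = 0.00203). Cenpe, a very long kinesin of the kinetochore, and Cenpf, a large kinetochore protein, had changes of -0.32 (SE 0.52, adjusted p = 0.628) and -0.29 (SE 0.44, adjusted p = 0.606) with ICB, of 0.31 (SE 0.52, adjusted p = 0.678) and 0.46 (SE 0.44, adjusted p = 0.453) with 5-FU, and overlapped PBS in every group.

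Genes of the passenger complex and of spindle assembly mostly fell with ICB. Birc5 (chr11:117849251-117855743, plus strand) encodes survivin, a subunit of the passenger complex with Aurora B. It was at 143, 165, 119.9 and 122 CPM in PBS, 75.5, 32.7, 41.8, 80.8 and 56.9 CPM with ICB and 90.6, 107, 62.3, 97.6 and 66.6 CPM with 5-FU, and with 5-FU+ICB at 64, 105, 66.2, 59.8 and 59 CPM. None of these 15 treated tumors reached the PBS range. The values were 83, 114, 107 and 129.7 CPM with cisplatin and 235, 56.6, 90.2, 60.8 and 66.4 CPM with cisplatin+ICB, replicate 1 being higher than any PBS tumor. In edgeR Birc5 fell by 1.25 on the log2 scale (SE 0.25, adjusted p = 0.00128) with ICB, by 0.70 on the log2 scale (SE 0.25, adjusted p = 0.0438) with 5-FU and by 0.95 on the log2 scale (SE 0.25, adjusted p = 0.0058) with 5-FU+ICB. Cdca8, which encodes borealin of the same complex, fell by 0.90 on the log2 scale (SE 0.22, adjusted p = 0.00429) with ICB, and Nusap1, which binds spindle microtubules, by 0.84 on the log2 scale (SE 0.18, adjusted p = 0.0018). Nusap1 also fell with 5-FU, by 0.70 on the log2 scale (SE 0.18, adjusted p = 0.0116), and with 5-FU+ICB its change of -0.48 (SE 0.18, adjusted p = 0.0361) was below the fold needed for a call. Hmmr, a spindle and hyaluronan-binding protein, fell by 1.05 on the log2 scale (SE 0.31, adjusted p = 0.0126) with ICB, and Tpx2, the activator of Aurora A, changed by -0.59 (SE 0.25, adjusted p = 0.0614).

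Of the 3 cytokinesis genes, Prc1 and Ect2 fell with ICB and with 5-FU+ICB. Prc1, which bundles the microtubules of the central spindle, was at 256, 248, 249 and 229 CPM in PBS, 138, 61.6, 80.3, 171 and 96.6 CPM with ICB and 183, 207, 97.6, 182 and 130.2 CPM with 5-FU. With 5-FU+ICB it was at 94.4, 229, 116, 96.7 and 40.9 CPM. The ICB and 5-FU tumors were wholly below PBS, and 5-FU+ICB replicate 2 was just inside the PBS range. Values of 175, 215, 232 and 210.1 CPM with cisplatin overlapped PBS, and those of 180.3, 119.9, 173, 118 and 128 CPM with cisplatin+ICB did not. Prc1 fell by 1.14 on the log2 scale (SE 0.36, adjusted p = 0.0166) with ICB and by 1.08 on the log2 scale (SE 0.36, adjusted p = 0.0205) with 5-FU+ICB (edgeR). Its changes were -0.62 (SE 0.36, adjusted p = 0.198) with 5-FU and -0.76 (SE 0.24, adjusted p = 0.0658) with cisplatin+ICB. Ect2, the exchange factor that sets the cleavage furrow, fell by 1.26 on the log2 scale (SE 0.40, adjusted p = 0.0183) with ICB and by 1.27 on the log2 scale (SE 0.40, adjusted p = 0.0171) with 5-FU+ICB. Anln, which encodes the ring scaffold anillin, changed by -1.03 (SE 0.47, adjusted p = 0.0861) with ICB and fell by 1.20 on the log2 scale (SE 0.47, adjusted p = 0.0472) with 5-FU+ICB, a call kept in 1 of 9 fits with 1 tumor left out and lost without 5-FU+ICB replicate 5.

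Both proliferation markers failed the test in every comparison. Mki67 (chr7:135689784-135716361, minus strand), which encodes Ki-67, the antigen used to count cycling cells, was at 169.7, 97.9, 678 and 480.1 CPM in PBS, so that the control group itself was widely spread. It was at 321, 174, 196, 478 and 239 CPM with ICB, 536, 527, 226, 533 and 389 CPM with 5-FU and 275, 668, 331, 355 and 120.1 CPM with 5-FU+ICB. It was at 479, 315, 453 and 140.4 CPM with cisplatin and 50.3, 347, 554, 348 and 358 CPM with cisplatin+ICB, and all groups overlapped PBS. The changes were -0.27 (SE 0.48, adjusted p = 0.668) with ICB, 0.36 (SE 0.49, adjusted p = 0.594) with 5-FU and 0.03 (SE 0.48, adjusted p = 0.96) with 5-FU+ICB in edgeR.

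Top2a, the topoisomerase that untangles sister chromatids, was at 514, 462, 672 and 567 CPM in PBS and 385, 192, 252, 569 and 332 CPM with ICB. With 5-FU it had 458, 537, 260.1, 439 and 353 CPM and with 5-FU+ICB 272, 655, 349.6, 308 and 147 CPM. In the ICB group 4 of 5 tumors were below PBS and replicate 4 was within it. The cisplatin tumors had 448, 488, 596 and 421 CPM and the cisplatin+ICB tumors 262, 416, 469, 375 and 364 CPM. Its changes were -0.65 (SE 0.33, adjusted p = 0.122) with ICB, -0.42 (SE 0.33, adjusted p = 0.348) with 5-FU and -0.66 (SE 0.33, adjusted p = 0.112) with 5-FU+ICB (edgeR), none past the threshold. The smallest p-value of Top2a in edgeR was that with cisplatin+ICB against PBS, which did not lead to a call either.

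Nor did either transcription factor pass. Foxm1, which encodes the forkhead activator of mitotic genes, was at 91.5, 43.1, 165 and 145 CPM in PBS and 85.4, 41.9, 54.2, 140.3 and 79.1 CPM with ICB. It was at 122, 154, 60.4, 127 and 83.7 CPM with 5-FU and 61.2, 164, 82.4, 72 and 26 CPM with 5-FU+ICB. As for Mki67, PBS replicate 2 was the lowest control. Values were 122, 100.2, 123 and 62.8 CPM with cisplatin and 9.28, 105, 129, 90.7 and 96.6 CPM with cisplatin+ICB, where replicate 1 had the lowest value of all 28 tumors. The changes of Foxm1 were -0.42 (SE 0.44, adjusted p = 0.45) with ICB and 0.01 (SE 0.44, adjusted p = 0.988) with 5-FU in the edgeR fit.

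Mybl2, the gene of B-Myb, was at 93.7, 63.5, 105 and 99.9 CPM in PBS and 52.9, 24.1, 29.9, 78.4 and 52.7 CPM with ICB. It had 85.7, 109.6, 45.5, 81.6 and 59.4 CPM with 5-FU, 34.8, 110.0, 66.4, 40.4 and 17.5 CPM with 5-FU+ICB. Most ICB tumors were under PBS but replicate 4 was not. With cisplatin Mybl2 was at 76.2, 83.8, 85.9 and 67.7 CPM and with cisplatin+ICB at 30.3, 53.8, 81, 51.1 and 63.1 CPM. Changes of -0.90 (SE 0.40, adjusted p = 0.0811) with ICB, -0.23 (SE 0.40, adjusted p = 0.692) with 5-FU and -0.73 (SE 0.40, adjusted p = 0.144) with 5-FU+ICB did not pass the edgeR test. For Mybl2 too the smallest p-value was that with cisplatin+ICB against PBS, again without a call.

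Calls were rarer among the members with long transcripts. Of the 9 members with a transcript of up to 2000 bases in the GENCODE M21 annotation, 9 were called lower with ICB, of the 17 members between 2000 and 4000 bases 12 were, and of the 9 over 4000 bases 2 were. All genes had the same slope: 34.7%, 19.2% and 6.6% of those in the same classes were called lower. Member medians were -1.24, -1.02 and -0.65, and those of all genes -0.33, -0.07 and 0.25, so that the members lay below the other genes of their length in each class. Birc5 (947 bases) and Ube2c (967 bases) stand at the short end, and Cenpe (7910), Mki67 (10061) and Cenpf (11130) at the long end. The same order was seen with 5-FU, with member medians of -0.74, -0.55 and -0.27 against -0.37, -0.05 and 0.32 for all genes.

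In an alternative added after seeing the data, each tumor's trend of log2 CPM over transcript length was taken out before the edgeR fit. The group means then were 6.72 ± 0.056 in PBS tumors, 6.50 ± 0.13 with cisplatin, 6.22 ± 0.41 with 5-FU, 6.13 ± 0.26 with cisplatin+ICB, 5.82 ± 0.62 with 5-FU+ICB and 5.68 ± 0.55 with ICB (SD, n as above). The fall with ICB was as large as before and PBS tumors were closer together. ICB then had 29 members called lower (19.6% of all genes), 5-FU+ICB 21 (19.7%), 5-FU 3, namely Cdk1, Cenpa and Nusap1 (9.53%), and cisplatin+ICB 2, Bub1b and Kif20a (1.22%). Mki67 (-0.62, adjusted p = 0.157), Foxm1 (-0.59, adjusted p = 0.235), Cenpe (-0.65, adjusted p = 0.22), Cenpf (-0.75, adjusted p = 0.063), Plk1 (-0.85, adjusted p = 0.081) and Ttk (-0.77, adjusted p = 0.07) were then lower in sign with ICB and still not called. The 6 newly called were Top2a (-0.95, adjusted p = 0.0211), Mybl2 (-0.99, adjusted p = 0.0477), Kif23, Kif4, Tpx2 and Anln, so that 1 of the 2 proliferation markers and 1 of the 2 transcription factors passed in this fit. What made the trend over length differ between tumors was not tested.

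**Figure D4:**
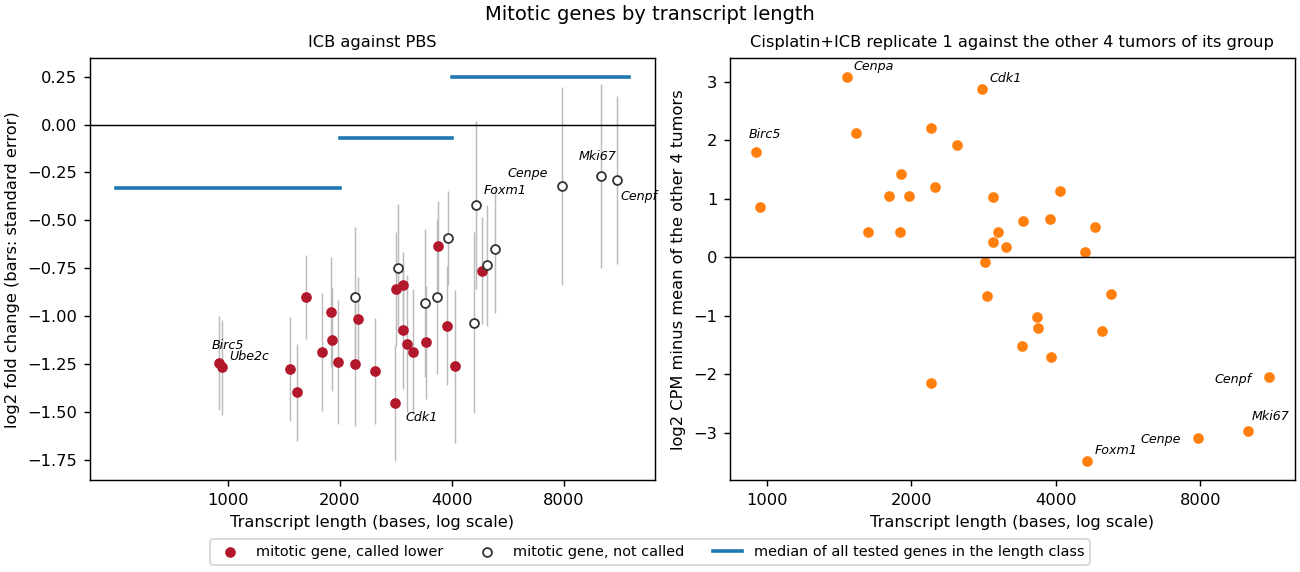
Left, log2 fold change with ICB against PBS ± standard error for the 35 genes over transcript length (log scale), filled where called lower, with the median of all tested genes in 3 length classes as lines; right, log2 CPM of cisplatin+ICB replicate 1 minus the mean of the other 4 tumors of that group. Members lie below the lines in each class, and in replicate 1 short members such as Cenpa (3.08) are high and long ones such as Mki67 (-2.97) are low.

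Cisplatin+ICB replicate 1 had members below every PBS tumor and others above every PBS tumor. The share of all genes on either side was not counted, so this is not a trait shown to be particular to the mitotic genes. Against the mean of the other 4 tumors of its group, it was 3.08 log2 units higher for Cenpa, 2.87 for Cdk1, 2.21 for Ndc80 and 2.13 for Ccnb2. It was lower for Foxm1, by -3.48, Cenpe, by -3.08, Mki67, by -2.97, and Plk1, by -2.15. Its mean over the 35 genes, 6.12, was within the range of its group. Without it, 23 members were called lower with cisplatin+ICB than in PBS, and the 12 not called were Mki67, Top2a, Plk1, Ttk, Kif11, Kif23, Kif4, Cenpe, Cenpf, Tpx2, Foxm1 and Mybl2. Ccnb1 was then at -1.17 (SE 0.26, adjusted p = 0.0045), Cdc20 at -0.97 (SE 0.21, adjusted p = 0.0039) and Birc5 at -0.95 (SE 0.25, adjusted p = 0.00902) in edgeR. With the length correction and without the same tumor the count was also 23 (13.9% of all genes).

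Single tumors set the other counts as well. With ICB, 31 members were called lower without ICB replicate 4, the tumor with the highest mean (19.8% of all genes), and 19 without replicate 2, the lowest (13.6%). Without PBS replicate 2 the count was 24 (12.6%). With 5-FU+ICB it was 30 without replicate 2 (23.6%) and 14 without replicate 5, the tumor rich in mitochondrial transcripts (18%). Ccna2, Cdc20, Aurkb, Kif20a, Kif2c, Cdca8 and Anln were the 7 no longer called without replicate 5. With 5-FU it was 2 without PBS replicate 2, Cenpa and Nusap1 (4.14%), 3 without PBS replicate 1 (7.04%), 4 without 5-FU replicate 3 (10.6%) and 4 without replicate 5 (8.74%), and 5 without replicate 4 (10.7%). In each of these fits Cenpa and Nusap1 were among the called genes. With cisplatin+ICB it was 2 without replicate 3, Kif20a and Kif2c (2.44%), and 0 without replicate 2, 4 or 5 and without PBS replicate 1, 3 or 4. By gene, 19 of the 23 calls with ICB were kept in each of the 9 fits with 1 tumor left out, and those of Bub1b and Kif11 in 2 of them. Of the 8 calls with 5-FU, 2, Cenpa and Nusap1, were kept in every fit, and that of Aurka in 1. Of the 21 calls with 5-FU+ICB, 12 were kept in every fit, those of Cdc20, Aurkb and Kif2c in 2, and those of Kif20a, Cdca8 and Anln in 1.

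No mitotic gene passed the test when a chemotherapy was added to ICB. Between 5-FU+ICB and ICB, 0 of the 35 were called in edgeR (0.162% of all genes were lower and 0.067% higher), the median was 0.17, the smallest adjusted p was 0.444, and 1 gene, Nusap1, was higher at an unadjusted p under 0.05 (6.13% of all genes), at 0.36. DESeq2 also called 0. Between cisplatin+ICB and ICB, 0 were called (0% of all genes in either direction), the median was 0.30 and the smallest adjusted p was 0.292. Ccnb2, Cdk1, Cenpa, Ndc80 and Birc5 were higher at an unadjusted p under 0.05 (8.74% of all genes), and DESeq2 called 0. In all 5 of these genes cisplatin+ICB replicate 1 was high, and without it 0 members reached an unadjusted p under 0.05 and 0 were called (0%), with a median of 0.27. Without 5-FU+ICB replicate 5, 0 members were called between 5-FU+ICB and ICB (0.0674% of all genes higher) and 0 had an unadjusted p under 0.05, with a median of 0.31. The mean over the 35 genes differed by 0.14 and by 0.33 log2 units, less than the pooled SD of the tumors (0.60 and 0.42), and the former was 0.34 without 5-FU+ICB replicate 5 and turned to -0.10 without 5-FU+ICB replicate 2. The latter was 0.15 without ICB replicate 2 and 0.51 without ICB replicate 4.

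When ICB was added to a chemotherapy, medians were below 0 and no member passed with all tumors. Between 5-FU+ICB and 5-FU the median was -0.30 and 0 members were called (0% of all genes lower, 0.0112% higher), with 0 lower at an unadjusted p under 0.05 (3.92% of all genes) and a smallest adjusted p of 0.466 in edgeR. Without 5-FU+ICB replicate 5 the median was -0.17, 0 members had an unadjusted p under 0.05 and 0 were called (0%). Between cisplatin+ICB and cisplatin the median was -0.44 and 0 were called (0%). There Ccna2, Bub1b, Kif20a, Kif2c, Hmmr and Prc1 were lower at an unadjusted p under 0.05 (4.58% of all genes), with Kif20a at -0.64 (SE 0.23, adjusted p = 0.193). Without cisplatin+ICB replicate 1, Ccnb1 (-0.83, adjusted p = 0.0469) and Ccnb2 (-0.81, adjusted p = 0.0491) were called lower, where 3.58% of all genes were. The means differed by -0.39 for 5-FU (-0.19 without 5-FU+ICB replicate 5 and -0.63 without replicate 2), with all tumors within the pooled SD of 0.54, and by -0.47 for cisplatin, above the pooled SD of 0.19, and in both cases the groups overlapped. DESeq2 called 0 members in either comparison.

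The chemotherapies and the combinations were also compared with each other. Between 5-FU and cisplatin 0 members were called (0.27% of all genes lower, 0.0918% higher), with a median of -0.29, 0 lower at an unadjusted p under 0.05 (6.62%) and a smallest adjusted p of 0.331. Between 5-FU+ICB and cisplatin+ICB 0 were called (0.194% lower, 0.103% higher), with a median of -0.12. Cdk1 (-1.17), Cenpa (-1.22) and Ndc80 (-0.87) had an unadjusted p under 0.05 there (13.5% of all genes were lower at that p), and the smallest adjusted p was 0.124 (edgeR). In these genes cisplatin+ICB replicate 1 was the high tumor, and without it 0 members had an unadjusted p under 0.05 and 0 were called (0.0542% of all genes). Without 5-FU+ICB replicate 5, Cdk1 and Cenpa had one and 0 were called (0.0163%), and without 5-FU+ICB replicate 2, 1 gene, Ect2, was called lower, at -1.08 (adjusted p = 0.0431 in edgeR), where 5.31% of all genes were. In the latter fit the median was -0.49 and 13 members had an unadjusted p under 0.05 (17.8% of all genes), and in the former the median was -0.03. DESeq2 called 0 in both comparisons with all tumors.

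Whether the effect of a chemotherapy depended on ICB was asked with the interaction, the change from ICB to the combination minus the change from PBS to the chemotherapy. For 5-FU the interaction was above 0 in 31 of 35 genes, with a median of 0.71, and 12 were higher at an unadjusted p under 0.05 (14.8% of all genes), but 0 were called (0.0781% of all genes lower, 0.0112% higher). The smallest adjusted p was that of Nusap1, at 1.07 (SE 0.24, adjusted p = 0.0664) in edgeR, followed by Ccnb2 at 1.21 (SE 0.35, adjusted p = 0.0706) and Cenpa at 1.28 (SE 0.38, adjusted p = 0.0725). DESeq2 called 4 members higher, where it called 2.44% of the 35539 genes with a count. In edgeR, Nusap1, Ccnb2 and Cenpa were called higher without PBS replicate 3 (6.53% of all genes) and without PBS replicate 4 (4.2%), and Nusap1 without 5-FU+ICB replicate 4 (3.46%). Without 5-FU+ICB replicate 5, 18 members had an unadjusted p under 0.05 and 0 were called (0%), with a smallest adjusted p of 0.0891. For cisplatin the median was 0.55, 2 genes, Birc5 (1.16) and Ccnb2 (1.27), were higher at an unadjusted p under 0.05 (3.72% of all genes), and 0 were called (0%), with a smallest adjusted p of 0.564, and DESeq2 called 0. Both genes were high in cisplatin+ICB replicate 1, and without it 0 members had an unadjusted p under 0.05 and 0 were called (0%), with a median of 0.49.

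Other cell cycle genes, listed by role, were read in the same fits. Of 50 further mitotic genes 33 were lower with ICB, 10 with 5-FU, 29 with 5-FU+ICB, 0 with cisplatin and 1, Kif22, with cisplatin+ICB, and their medians were -0.91, -0.53, -0.81, -0.19 and -0.52. Of all tested genes 18.8%, 13%, 18.7%, 0% and 1.4% were called lower in the same comparisons, which holds for each list below. Without cisplatin+ICB replicate 1, 25 were lower with cisplatin+ICB (17.1% of all genes), with a median of -0.62, and without 5-FU+ICB replicate 5, 21 with 5-FU+ICB (18%), with a median of -0.65. With ICB, Pttg1, which encodes securin, the inhibitor of separase, fell by 1.22 on the log2 scale (SE 0.18, adjusted p = 0.00024), and Bub3, a checkpoint subunit, by 0.83 (SE 0.16, adjusted p = 0.00111). Spc24 of the kinetochore fell by 1.36 (SE 0.27, adjusted p = 0.00116) and Mad2l1, which encodes the checkpoint protein MAD2, by 1.27 (SE 0.26, adjusted p = 0.00161). Subunits and regulators of the anaphase-promoting complex are needed in resting cells too. Of 16, 10 were lower with ICB, 6 with 5-FU and 7 with 5-FU+ICB, beside 18.8%, 13% and 18.7% of all genes, and 0 with cisplatin or cisplatin+ICB (0% and 1.4%), the first 3 with medians of -0.54, -0.45 and -0.46. In the same pair of fits with 1 tumor left out, 10 were lower with cisplatin+ICB and 8 with 5-FU+ICB, beside 17.1% and 18%. Cdc16 fell by 0.76 with ICB and by 1.01 with 5-FU+ICB, and Cdc23 by 0.86 and 0.98, both being core subunits.

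Of 20 genes of DNA replication, 15 were lower with ICB, 6 with 5-FU, 10 with 5-FU+ICB, 0 with cisplatin and 1, Mcm2, with cisplatin+ICB, beside 18.8%, 13%, 18.7%, 0% and 1.4% of all genes, with medians of -0.80, -0.45, -0.63, -0.26 and -0.49. Without cisplatin+ICB replicate 1, 11 were lower with cisplatin+ICB (17.1%), and without 5-FU+ICB replicate 5, 9 with 5-FU+ICB (18%). With ICB, Mcm5, a subunit of the replicative helicase, fell by 1.07 (SE 0.21, adjusted p = 0.0011), Prim1, a primase subunit, by 1.26 (SE 0.26, adjusted p = 0.00177), and Pcna, the sliding clamp of the polymerase, by 0.87 (SE 0.20, adjusted p = 0.0028) on the log2 scale. The cyclins, kinases and inhibitors of the first gap phase did not share a direction. Of 13, 3 were lower and 4 higher with ICB, where 18.8% and 19% of all genes were, respectively. With cisplatin+ICB, 2 were lower and 2 higher without replicate 1 (17.1% and 18.2% of all genes), with a median of 0.50. With 5-FU+ICB, 3 were lower and 4 higher without replicate 5 (18% and 18.8%), with a median of 0.13. With ICB, Cdk4, the kinase of the D cyclins, fell by 1.17 (SE 0.22, adjusted p = 0.00109). Ccnd2 and Ccnd3, D cyclins of blood cells among others, rose by 0.66 (SE 0.20, adjusted p = 0.0129) and 0.56 (SE 0.18, adjusted p = 0.0172), and the inhibitor gene Cdkn2b by 2.37 (SE 0.71, adjusted p = 0.0138). Ccnd1 changed by -0.64 (SE 0.44) and did not pass. Cdkn1a, which encodes the p53 target p21, an inhibitor of cyclin-dependent kinases, changed by 0.07 with ICB and by 0.58 with cisplatin, neither called, and rose with cisplatin+ICB by 0.66 (adjusted p = 0.0221), where 4.7% of all genes were called higher. The 3 calls of other lists with cisplatin+ICB, Kif22, Mcm2 and Cdkn1a, were lost with the replicate block and with the compared groups alone, and were kept in 3, 3 and 5 of 9 fits with 1 tumor left out. Of the 19 genes of other lists followed for 5-FU, 18 were not called with all 6 groups joined. Of 14 subunits of DREAM, MuvB and NF-Y, which read the promoter motifs shown above, 4 were lower and 1 higher with ICB. Rbbp4 fell by 0.80 (SE 0.17, adjusted p = 0.00218), Tfdp1 by 0.99 (SE 0.24, adjusted p = 0.00411), and E2f5 by 0.72, and Rbl2, the repressor p130, rose by 0.80 (SE 0.25, adjusted p = 0.0164) in edgeR. Of the same 14, 3 were lower and 1 higher with cisplatin+ICB without replicate 1 (17.1% and 18.2% of all genes), with a median of -0.34. With 5-FU+ICB, 5 were lower and 1 higher without replicate 5 (18% and 18.8%), with a median of -0.42.

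**Figure D5:**
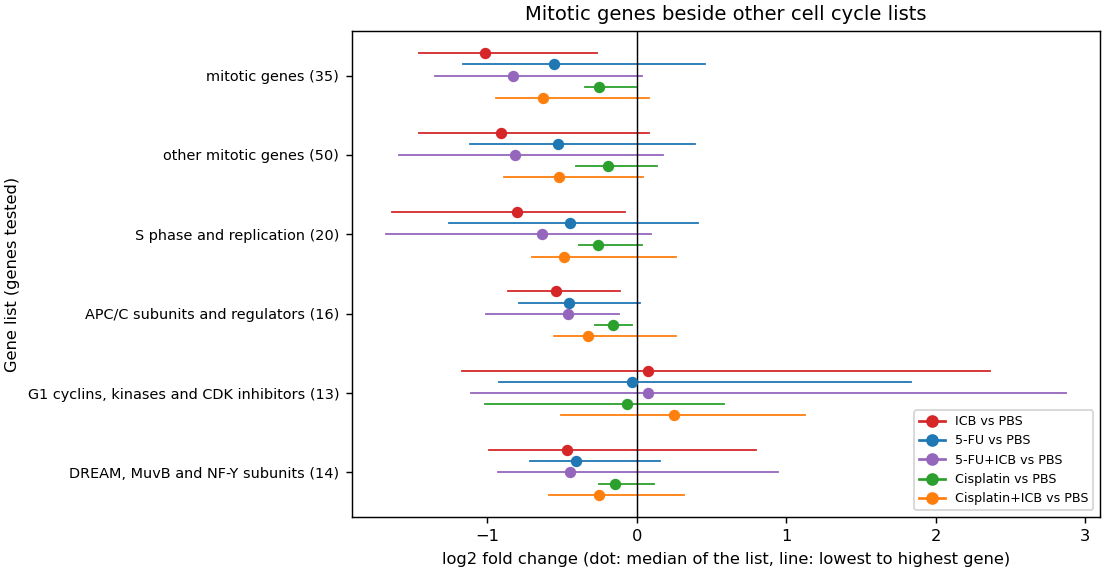
Median log2 fold change against PBS (points) and range over the genes (bars) for the 35 mitotic genes and 5 other lists of cell cycle genes in the 5 treatment groups. Medians of the mitotic genes run from -1.02 with ICB to -0.25 with cisplatin, and that of the cyclins, kinases and inhibitors of the first gap phase is 0.07 with ICB.

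Markers of host cells were summed in the same tumors. The summed CPM of 5 pan-leukocyte markers, all above the floor, had a median of 565 in PBS (539.8 to 681.1), 699.9 with cisplatin, 793 with 5-FU (598 to 2193), 1953 with cisplatin+ICB (855 to 2117), 2408 with 5-FU+ICB (714 to 4329) and 2692 with ICB (1506 to 3302). In 3 of the 5 treated groups the tumor with the lowest sum had the highest mitotic mean, ICB replicate 4 (1506), 5-FU+ICB replicate 2 (714) and cisplatin+ICB replicate 3 (855), and in 5-FU and cisplatin it did not, the lowest sums being those of 5-FU replicate 4 (598) and cisplatin replicate 2 (561) and the highest mitotic means those of 5-FU replicate 2 (793) and cisplatin replicate 3 (570.2). The tumor with the highest sum had the lowest mitotic mean in 5-FU (replicate 3, 2193), 5-FU+ICB (replicate 5, 4329) and cisplatin (replicate 1, 887). In ICB the highest sum was that of replicate 3 (3302) and the lowest mean that of replicate 2 (2692), and in cisplatin+ICB they were those of replicate 5 (2117) and replicate 2 (1953).

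The sum of 6 macrophage markers had a median of 1466 CPM in PBS (1349 to 2059), 5298 with ICB (2802 to 7724) and 3836 with 5-FU+ICB, and that of 7 T cell markers went from 33.5 (28.2 to 41.7) to 314 (173 to 694) with ICB. Neutrophil markers, 4 genes, were at 10.3 in PBS (9.11 to 17.9) and 124 with ICB (59.1 to 164), and endothelial markers, 4 genes, at 88.5 (67.3 to 126) and 209 (129 to 255). Each of these ICB ranges lay above that of PBS. Fibroblast markers, 5 genes, were at 6639 CPM in PBS (3891 to 9172) and at 12757 with 5-FU (10392 to 16060), above every PBS tumor, whereas with ICB they were at 5299 (3697 to 7408). Skeletal muscle markers, 5 genes, ranged from 1.61 to 3157 CPM with ICB and from 2.36 to 4357 with 5-FU+ICB, against 101 to 167 in PBS, and 0 of the 5 genes were called in any comparison. NK cell markers, 3 of 4 above the floor, were at 15.4 in PBS and 29.7 with ICB, and B cell markers, 4 genes, at 15.0 and 7.91, and the ICB ranges of both overlapped those of PBS. Apart from the NK cell list, every gene of these lists was above the floor. 5-FU+ICB replicate 5, with the lowest mitotic mean of its group, had the highest sums of skeletal muscle (4357), B cell (770.0) and T cell markers (1500.3) of the 28 tumors. The mesothelial and mesothelioma markers, 5 of 6 above the floor, did not share a direction. Their sum, a median of 312 CPM in PBS and 97.2 with ICB, was nearly all Msln, which changed by -1.51 with ICB (SE 0.76, adjusted p = 0.117), while Wt1 rose by 3.03 on the log2 scale (SE 0.67, adjusted p = 0.00226) from at most 0.181 CPM in PBS, and Krt19 changed by 1.70 (SE 1.36, adjusted p = 0.322) in edgeR. The part of these cell mixtures in the fall of the mitotic genes was not tested.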

How the data were processed

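RNA of 28 tumors was sequenced as single-end reads. Per the submitters' processing notes, reads were demultiplexed with bcl2fastq 2.20.0.422 and assigned to mouse transcripts (GRCm38/mm10) with kallisto 0.46.0. The values are estimated counts per gene, which the authors obtained with tximport and deposited unscaled as 2 matrices, and the 9 tumors of PBS and ICB stand in either one. The annotation release was not given in the sources used here. Of the values, 23.7% were not whole and were rounded.

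Groups came from the sample labels, and the labels gave no batch. R 4.3.3 with edgeR 4.0.16 and limma 3.58.1 was used: filterByExpr, TMM scaling and the quasi-likelihood test over all genes, with all groups of a matrix in the model and no covariate. Pairs of groups from different matrices used all 6 groups joined. In all 13 comparisons (11 pairs, 2 interactions) p-values were adjusted by the Benjamini-Hochberg method over all genes tested, and a call needed an adjusted p under 0.05 with a log2 fold change beyond 0.5 in size. Standard errors were derived from the F statistic. The log2 CPM used a prior count of 2. P-values measure the spread between tumors of separate mice.

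The 35 members and the other lists were chosen with earlier results of these data known. Any member could be named. Values in every tumor are given for Mki67, Top2a, Ccnb1, Cdk1, Cdc20, Plk1, Aurkb, Birc5, Foxm1, Mybl2 and the member of each role with the smallest p. Of the other lists, up to 4 called genes of smallest p in a comparison, with Cdkn1a, Ccnd1, Pcna and Mad2l1, could be named. Transcript length was that of the principal protein-coding transcript in GENCODE M21, and the length correction took out a lowess trend (span 0.3) over the 14944 genes with a length. Promoters were read from RefSeq sequences on GRCm38.p6. Reads of the pseudogenes Ccnb1-ps and Ccnb2-ps were 0.0205% and 0.509% of those of their parent genes, and Kif4-ps had 0.

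Alternatives were DESeq2 1.42.0, its size factors, other filters, a prior count of 0.5, the replicate number as a block, models of other groups, each tumor left out, and the length correction. The last, and the other lists without 1 tumor, were added after seeing the data. On simulated ICB and PBS data with 17574 genes, of which 200 were changed by a log2 of 2, 73% of the changed genes were called, and unchanged genes made up 4.58% of all calls. On simulated 5-FU and PBS data with no gene changed, 0 calls were made. These simulated data held no trend over transcript length and no library that stood apart, so they do not give the rate of false calls in the real tumors.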

Additional observations from a re-analysis of the deposited data

Results flagged for a closer look

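A tumor was marked where its gap to the nearest tumor of its group took more of the range than Dixon's 95% critical value allows, for the 16 genes given in every tumor and for the mean over the 35 genes, in each of the 6 groups. This was so in 12 of the 96 pairs of a gene and a group and in 0 of the 6 means. Chance marks about 1 in 20 where the pairs are independent. The 96 pairs were not, since the 16 genes were read in the same tumors and tended to move together. All 12 marks fell on the tumors named below, so whether they exceed chance was not tested.

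In the 5-FU+ICB group the high tumor was replicate 2, with 105 CPM for Ccnb1, 105 CPM for Birc5, 77.4 CPM for Ccnb2, 55.4 CPM for Aurka and 73.5 CPM for Cenpa. This tumor had the lowest pan-leukocyte sum of its group, 714 CPM. In the cisplatin+ICB group it was replicate 1, with 218 CPM for Ccnb1, 691 CPM for Cdk1, 125 CPM for Cdc20, 235 CPM for Birc5, 214 CPM for Ccnb2, 78.0 CPM for Aurka and 423 CPM for Cenpa. In this tumor genes with short transcripts were high over the whole library, by 1.85 log2 units against long ones, relative to the PBS mean. The part of these values in the marked levels was not tested.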

How the results depend on the processing

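No fold change of a called member reversed under any alternative, and the differences of the group means all stayed within 1 SD of the values given. The counts of members called lower moved as follows, with the share of all genes called lower in the same fit in parentheses. With 5-FU against PBS (8 with all tumors, 13%), no filter gave 3 (3.13%), the replicate block 5 (11.4%), all 6 groups joined 0 (1.61%), the compared groups alone 13 (10.5%), the length correction 3 (9.53%), and the length correction without PBS replicate 2 0 (3.31%). With 5-FU+ICB against PBS (21, 18.7%), no filter gave 13 (6.44%). With cisplatin+ICB against PBS (1, 1.4%), DESeq2 gave 7 (0.853%), no filter 0 (0.119%), the replicate block 0 (0.0337%), the joined groups 0 (0.939%), the compared groups alone 0 (0%), the length correction 2 (1.22%), and the length correction without cisplatin+ICB replicate 1 23 (13.9%). The latter gave 2 against cisplatin (3.85%), where 0 were called with all tumors. For 5-FU against cisplatin (0, 0.27%) the compared groups alone gave 1 (2.59%), and for the interaction of 5-FU with ICB (0) DESeq2 gave 4 higher (2.44% of all genes higher). DESeq2 and no filter take in every gene with a count, so that their shares are of more genes. The causes were not tested.

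Leaving out each tumor in turn gave 19 to 31 members lower with ICB against PBS, 2 to 8 with 5-FU, 14 to 30 with 5-FU+ICB and 0 to 23 with cisplatin+ICB. It gave 0 to 2 for cisplatin+ICB against cisplatin, 0 to 1 between the combinations, 0 to 3 for the interaction of 5-FU with ICB, and 0 elsewhere.

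The replicate numbers did not pair the tumors. Over 66 pairs of tumors with the same number, deviations from the group means had a median correlation of -0.02 (-0.63 to 0.66), and 5 of 28 tumors correlated best with their own number. With the replicate block ICB had 20 members called lower (16.9% of all genes) and 5-FU+ICB 18 (17.4%). The largest shift of the median of all genes by another scaling was 0.085. Groups held 4 or 5 tumors, and no member had fewer than 175 counts in any of them.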
